A study of Mus musculus with 12 samples.

Results

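The genotype effect shared by both diets was described in the arcuate nucleus (ARC) of female mice, as the difference between all 7 libraries from Esr1 Nkx2-1Cre mutants, called NkxCre here, and all 5 libraries from Esr1 fl/fl controls, called Ctrl, taken as the mean of the differences within chow and within high-fat diet (HFD). These 12 libraries are the whole series: 3 Ctrl and 4 NkxCre on chow, 2 Ctrl and 3 NkxCre on HFD, from 27-week-old females, with the HFD given for 17 weeks. Genes that differed the same way on both diets were taken as those whose NkxCre and Ctrl libraries did not overlap on chow and did not overlap on HFD, in the same direction. There were 55 such genes among 15801 tested (0.348%), and 54 without Rps7, a ribosomal protein gene of far larger difference, of which 25 were higher and 29 lower in NkxCre. The floxed Esr1 allele is carried by every animal, controls included, on a mixed CD-1 and 129P2 background, and the genotypes differ in a Cre driven by Nkx2-1. Nkx2-1 is switched on in the embryonic ventral hypothalamus and also outside the brain, so the deletion is not limited to the ARC, and the ARC itself was microdissected as a block that can carry neighbouring nuclei.

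Esr1 encodes oestrogen receptor alpha (ERα), a nuclear receptor that binds DNA as a dimer at oestrogen response elements, which are inverted repeats of a short half-site, and turns genes on or off with co-activators and co-repressors. In the female ARC the receptor is carried by neurons that make kisspeptin, neurokinin B and dynorphin, by dopamine neurons and by part of the proopiomelanocortin neurons, and it is known there for the feedback of ovarian hormones on reproduction and for effects on energy balance. Some genes are known to respond to oestrogen, upward or downward, in the brain or elsewhere. They include the progesterone receptor (Pgr), Greb1, the oxytocin receptor (Oxtr) and the neuropeptide genes Pdyn and Tac2.

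Values are the deposited abundance signal, with column totals of 922172 to 1254999 and no read depth given, so that counting error is unknown. Differences are on the log2(signal + 1) scale, which understates those of low genes. Each library listed 201 to 1768 genes at 0. Ctrl chow replicate 2 had the highest column total, and Ctrl HFD replicate 1 held 2112 of the choroid plexus gene Ttr against at most 19.2 in any other library. Without both libraries, 427 of 15727 genes tested differed the same way on both diets and 603 in opposite ways. The 1 or 2 Ctrl libraries then left per diet overlap less often.

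The targeted gene, Esr1 (ENSMUSG00000019768, chr10:4611593-5005614, coordinates here and throughout on GRCm38), gave signals of 17.8, 7.29 and 19.8 in the Ctrl chow libraries, 6.05, 3.15, 1.93 and 1.65 in NkxCre chow, 15.3 and 22.4 in Ctrl HFD and 10.7, 16.6 and 11.9 in NkxCre HFD. All NkxCre chow libraries lay below all Ctrl chow libraries, whereas on HFD the genotypes overlapped, with means of 18.8 ± 5.06 (SD) in Ctrl and 13.1 ± 3.11 in the libraries labelled NkxCre. The mean effect over both diets was -1.21 ± 0.32 (log2, standard error), with an exact two-sided permutation p of 0.00857 over the 350 arrangements of genotype within diets. Chow alone gave an exact p of 0.0571 and HFD alone 0.3, where the smallest values the designs allow are 0.0286 and 0.1. In the limma fit across all genes the effect had an unadjusted p of 0.0023 and an adjusted p near 1, and the interaction with diet an unadjusted p of 0.042. Directions on HFD below are therefore those of the libraries labelled NkxCre HFD. In this bulk tissue, fewer cells of a type and less RNA per cell cannot be told apart.

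**Figure D1:**
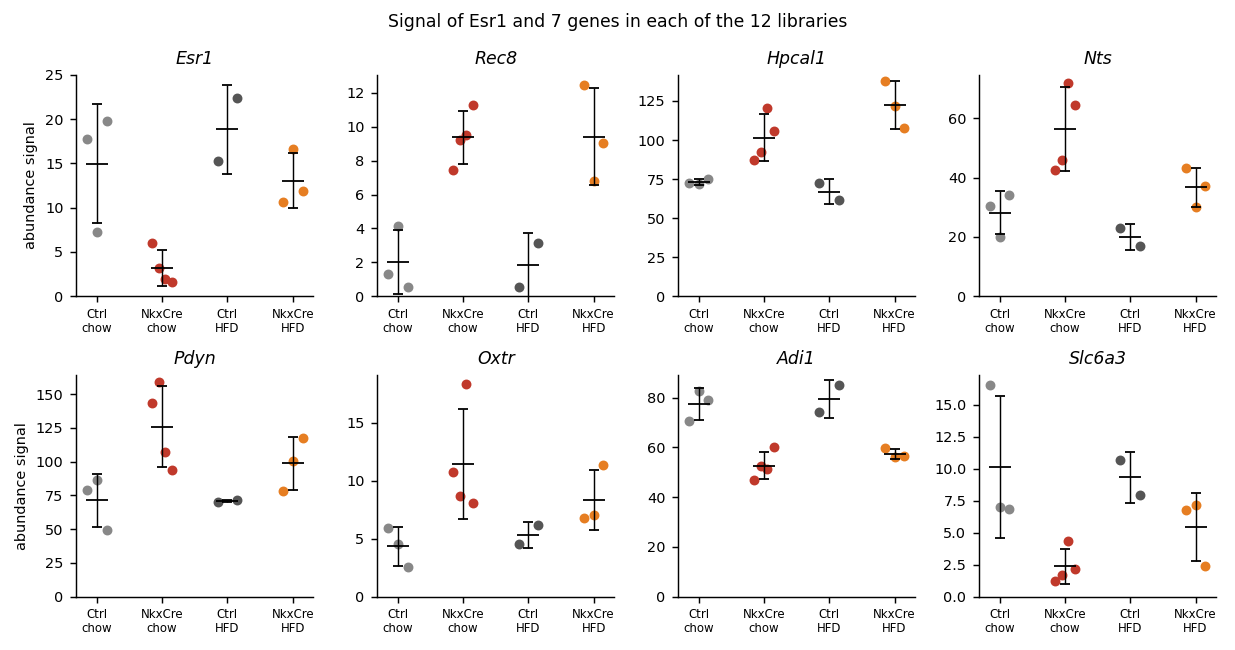
Abundance signal (vertical axes, from 0) of Esr1, Rec8, Hpcal1, Nts, Pdyn, Oxtr, Adi1 and Slc6a3 in each of the 12 libraries (points) by group, with the group mean and SD (bars). Esr1 overlaps between genotypes on HFD, and the other 7 genes, which were chosen for it, overlap on neither diet.

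With limma's test across 15801 genes and Benjamini-Hochberg adjustment, Rps7 alone passed an adjusted p of 0.05 in the mean effect (0.00633% of genes), at 3.40 ± 0.19, and the next smallest adjusted p was 0.645, for Rec8 and Hpcal1. At an unadjusted p below 0.05 there were 451 genes (2.85%), 240 higher (1.52%) and 211 lower (1.34%) in NkxCre. The interaction of genotype with diet passed the adjusted threshold for 0 genes by the same limma test, with 543 genes at an unadjusted p below 0.05. Within chow, Rps7, Ccn3 and Fst passed the adjusted threshold, and within HFD Rps7 did. The calls of Ccn3 and Fst were both lost when any one Ctrl chow library or NkxCre chow replicate 4 was left out, and Fst was lost, with Ccn3 kept, with a pseudocount of 0.1, a filter at a mean of 5, a ventromedial or choroid plexus marker score as covariate, or without NkxCre chow replicate 1, Ctrl HFD replicate 2 or any one NkxCre HFD library.

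Across genes, the chow and HFD effects, which use different libraries, did not run together. They had the same sign for 7376 of 15801 genes (46.7%), and their correlation across genes, which are not independent replicates, was -0.045 (Pearson) and -0.070 (Spearman). The genotypes did not overlap for 713 genes on chow (4.51%) and for 2485 genes on HFD (15.7%), where 2 libraries stood against 3. Of the 713, 55 (7.71%, and 2.21% of the 2485) did not overlap in the same direction on HFD, while 85 (11.9%) did so in the opposite direction, 51 of them higher on chow and lower on HFD. The order of these counts rests on single libraries: it was 162 the same way against 155 in opposite ways without Ctrl chow replicate 2, and 192 against 189 without Ctrl HFD replicate 1. Leaving out any one library gave 80 to 192 genes in place of the 55. The values of the 55 that follow are a description of genes picked on these same libraries.

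**Figure D2:**
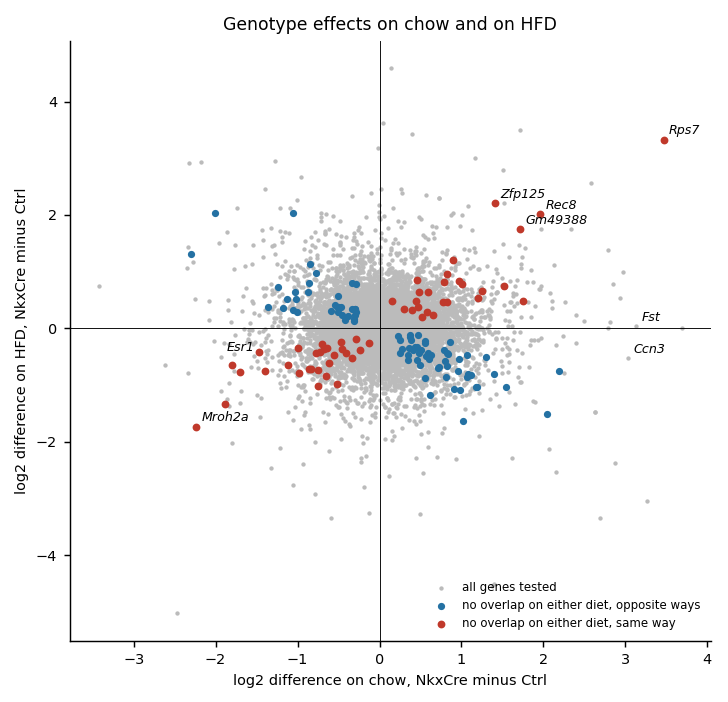
Genotype effect on chow (horizontal axis) against that on HFD (vertical axis), both as log2 differences, for the 15801 genes tested. The 55 genes without overlap in the same direction (red) lie in the upper right and lower left, the 85 in opposite directions (blue) in the other quadrants, and Rps7 stands apart at 3.47 and 3.33.

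The 54 genes had mean effects from -1.98 to 1.98, with medians of 0.66 for the 25 higher and -0.67 for the 29 lower genes, against 0.00095 over all genes tested. Their mean signals ran from 1.30 to 121, and 29 of 54 had a mean of at least 10. In 23 of the 54, 11 higher and 12 lower, all 7 NkxCre libraries lay beyond all 5 Ctrl libraries whatever the diet, and with Rps7 this held for 24 genes of the table (0.152%). Unadjusted p was below 0.05 for 49 of the 54, a share that the choice of non-overlapping genes sets, and the adjusted p was 0.645 or more for each. By annotation 52 are protein coding and 28 overlap another gene, whose reads cannot be told apart where the same bases are shared. The smallest unadjusted interaction p among them was 0.054 (Lca5), which the choice of genes separate the same way on both diets also sets.

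**Figure D3:**
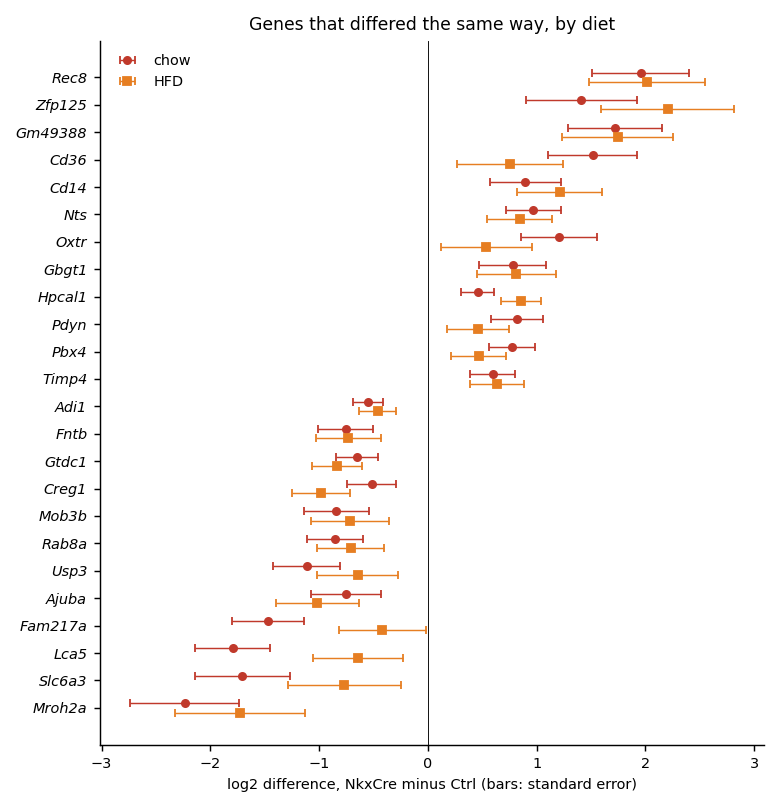
Log2 difference between NkxCre and Ctrl on chow (circles) and on HFD (squares), with standard errors, for the 12 higher and 12 lower genes of smallest unadjusted p among the 54. Rec8, Gm49388, Timp4 and Fntb have nearly the same value on both diets, whereas the Lca5, Fam217a and Slc6a3 differences are smaller on HFD.

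The neuropeptide genes Nts and Pdyn and the neuropeptide receptor gene Oxtr were higher in NkxCre on both diets. Nts (ENSMUSG00000019890, chr10:102481756-102490486), the precursor of neurotensin, gave signals of 30.3, 20.1 and 34.3 in the Ctrl chow libraries, 42.7, 45.9, 72.0 and 64.6 in NkxCre chow, 23.1 and 17.0 in Ctrl HFD and 43.2, 29.9 and 37.1 in NkxCre HFD. The effects were 0.97 ± 0.25 on chow and 0.84 ± 0.30 on HFD, and the mean effect 0.91 ± 0.19 had an unadjusted p of 4.87e-04. No NkxCre library fell within the Ctrl range of its own diet, although NkxCre HFD replicate 2 lay below 2 of the Ctrl chow libraries. Pdyn (ENSMUSG00000027400, chr2:129686565-129699844), which encodes prodynorphin, measured 78.7, 86.1 and 49.0 in the Ctrl chow libraries, 144, 159, 107 and 94.0 in NkxCre chow, 70.0 and 71.2 in Ctrl HFD and 78.3, 101 and 118 in NkxCre HFD. Its Ctrl HFD libraries were nearly equal, and NkxCre HFD replicate 1 was only slightly above them. The mean effect was 0.64 ± 0.18, with 0.82 ± 0.24 on chow and 0.46 ± 0.28 on HFD and an unadjusted limma p of 0.0044 for the mean. Oxtr (ENSMUSG00000049112, chr6:112473683-112489943), the oxytocin receptor gene, was low, with signals of 5.93, 4.54 and 2.59 in the Ctrl chow libraries, 10.8, 8.66, 18.4 and 8.09 in NkxCre chow, 4.56 and 6.15 in Ctrl HFD and 6.76, 7.01 and 11.4 in NkxCre HFD. All 7 NkxCre libraries exceeded all 5 Ctrl libraries. The log2 differences between group means were 1.2 ± 0.35 on chow and 0.54 ± 0.42 on HFD (mean effect 0.87 ± 0.27, unadjusted p 0.0071 by limma).

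Slc6a3 (ENSMUSG00000021609, chr13:73536747-73578672), the dopamine transporter gene, was the low counterpart of these, with 16.6, 7.02 and 6.82 in the Ctrl chow libraries, 1.21, 1.68, 4.34 and 2.18 in NkxCre chow, 10.7 and 7.91 in Ctrl HFD and 6.78, 7.14 and 2.40 in NkxCre HFD. Every NkxCre library was below the Ctrl libraries of its diet, most clearly on chow. The mean effect was -1.24 ± 0.34 (-1.71 ± 0.43 on chow, -0.77 ± 0.52 on HFD, unadjusted limma p 0.0031 for the mean). Th, the tyrosine hydroxylase gene of the same dopamine neurons, had a mean effect of 0.024 ± 0.22. All 16 arcuate neuropeptide and transmitter genes listed were tested. At an unadjusted limma p below 0.05, 5 were higher (Nts, Penk, Tac1, Pdyn, Tac2) and 1 lower (Slc6a3), against 1.52% and 1.34% of all genes tested. At an adjusted p there were 0, and the median effect was 0.16. Nts, Pdyn and Slc6a3 were also picked for non-overlap on these same libraries, and Penk was singled out by the study on these samples. Tac1, the substance P precursor gene, gave 54.8, 45.1 and 21.8 in the Ctrl chow libraries, 175, 78.4, 82.5 and 38.0 in NkxCre chow, 73.3 and 20.5 in Ctrl HFD and 272, 210.1 and 98.0 in NkxCre HFD, with a mean effect of 1.62 ± 0.43 (unadjusted p 0.0024). Its genotypes overlapped on chow and were separate on HFD. Tac2, the neurokinin B gene, had a mean effect of 0.89 ± 0.36 and overlapping genotypes on both diets. Agrp (0.071 ± 0.47), Npy (-0.048 ± 0.46) and Pomc (0.10 ± 0.34), the main appetite peptides of the ARC, had mean effects within 1 standard error of 0.

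The ventromedial nucleus borders the ARC. Of 9 of its markers, 8 had mean effects above 0 with a median of 0.54, Fezf1 (1.86 ± 0.70) and Cbln1 (0.83 ± 0.38) at an unadjusted p below 0.05 and 0 at an adjusted p by limma. Their summed signal overlapped between genotypes on both diets, at 162 to 246 in Ctrl chow, 200.3 to 446 in NkxCre chow, 156 to 397 in Ctrl HFD and 293 to 363 in NkxCre HFD. The defining marker Nr5a1 had a mean signal of 8.92 and a mean effect of 1.04 ± 0.57. With the mean log2 signal of the 9 markers as a covariate, the effect was 0.94 for Nts, 0.49 for Pdyn, 0.92 for Oxtr, -1.34 for Slc6a3 and 1.28 for Tac2, and Tac1 went from 1.62 to 1.07. With a choroid plexus score as covariate, Nts was at 0.92, Pdyn at 0.73, Oxtr at 0.77 and Slc6a3 at -1.07. Tac2 was at 0.39, against 0.89 without the covariate, with an unadjusted limma p of 0.33. Among other genes named below, some went towards 0, such as Mroh2a (-1.98 to -1.52), Rec8 (1.98 to 1.71), Mob3b (-0.78 to -0.53) and Timp4 (0.62 to 0.46). Others went away from 0, such as Usp3 (-0.88 to -1.06), Rab8a (-0.78 to -0.95) and Pbx4 (0.62 to 0.78). The choroid plexus markers summed to 2194 in Ctrl HFD replicate 1 and to at most 80.6 in any other library, so this covariate leans on that library.

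Promoter sequences were read for an oestrogen response element because the deleted gene encodes the receptor that binds it. The sequences below, from RefSeq on GRCm38.p6, run 5′ to 3′ from 250 bases before to 50 after the transcription start, and show the oxytocin receptor and neurotensin genes and the 2 genes of smallest p, Rec8 and Hpcal1. Capitals mark the half-site GGTCA, read on either strand (TGACC).
Oxtr (chr6:112489776-112490075, minus strand): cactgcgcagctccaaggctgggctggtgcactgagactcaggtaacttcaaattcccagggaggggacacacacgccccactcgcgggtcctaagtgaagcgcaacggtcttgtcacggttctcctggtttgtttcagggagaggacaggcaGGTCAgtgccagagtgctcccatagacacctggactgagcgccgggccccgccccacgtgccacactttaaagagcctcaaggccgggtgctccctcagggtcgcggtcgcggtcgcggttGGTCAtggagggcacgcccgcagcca
Nts (chr10:102490369-102490668, minus strand): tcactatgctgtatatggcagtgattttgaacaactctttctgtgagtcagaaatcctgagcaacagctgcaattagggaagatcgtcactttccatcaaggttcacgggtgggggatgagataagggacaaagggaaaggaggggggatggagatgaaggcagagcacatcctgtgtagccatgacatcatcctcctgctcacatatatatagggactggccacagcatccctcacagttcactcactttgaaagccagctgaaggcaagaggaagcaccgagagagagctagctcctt
Rec8 (chr14:55617916-55618215, plus strand): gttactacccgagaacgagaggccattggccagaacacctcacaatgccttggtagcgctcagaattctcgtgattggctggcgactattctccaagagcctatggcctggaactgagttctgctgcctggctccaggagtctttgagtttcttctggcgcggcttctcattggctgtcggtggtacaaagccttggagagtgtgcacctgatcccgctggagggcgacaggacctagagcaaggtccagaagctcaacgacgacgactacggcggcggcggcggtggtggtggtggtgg
Hpcal1 (chr12:17690559-17690858, plus strand): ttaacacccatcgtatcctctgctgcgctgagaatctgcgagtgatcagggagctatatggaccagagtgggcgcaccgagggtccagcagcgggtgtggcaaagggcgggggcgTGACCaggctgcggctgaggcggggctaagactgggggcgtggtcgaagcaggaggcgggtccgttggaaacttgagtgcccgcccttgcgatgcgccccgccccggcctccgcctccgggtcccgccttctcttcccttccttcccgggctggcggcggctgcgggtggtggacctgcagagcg
The Oxtr window holds 2 half-sites, the Hpcal1 window 1, and those of Nts and Rec8 none, and both Pdyn windows and that of Slc6a3 hold none either. Over the genes that differed the same way on both diets, 47 had an entry, with 59 windows, of which 21 (35.6%) held a half-site, against 5755 of 15096 windows (38.1%) of the 11838 tested genes with an entry. The full element searched, GGTCANNNTGACC, was in 0 of the 59 and in 2 of the 15096 (0.0132%).

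The smallest unadjusted p after Rps7 belonged to Rec8 (ENSMUSG00000002324, chr14:55618037-55625395), which encodes a cohesin subunit known from meiosis. Its signals were 1.29, 4.17 and 0.571 in the Ctrl chow libraries, 7.47, 9.21, 9.53 and 11.3 in NkxCre chow, 0.530 and 3.16 in Ctrl HFD and 12.5, 6.80 and 9.01 in NkxCre HFD. All NkxCre libraries were above all Ctrl libraries, and the effects were alike on chow (1.96 ± 0.45) and HFD (2.01 ± 0.53), with a mean of 1.98 ± 0.35 (limma, unadjusted p 8.59e-05, adjusted p 0.645). Mean signal was 2.01 ± 1.90 (SD) in Ctrl chow, 9.38 ± 1.57 in NkxCre chow, 1.85 ± 1.86 in Ctrl HFD and 9.42 ± 2.85 in NkxCre HFD. Hpcal1 (ENSMUSG00000071379, chr12:17690856-17791933), of the neuronal calcium sensor family, was far more abundant, at 72.8, 71.6 and 74.9 in the Ctrl chow libraries, 87.3, 92.5, 121 and 106 in NkxCre chow, 72.5 and 61.3 in Ctrl HFD and 138, 122 and 108 in NkxCre HFD. The 5 Ctrl libraries lay between 61.3 and 74.9 and the 7 NkxCre libraries between 87.3 and 138, and the effect was 0.46 ± 0.15 on chow and 0.86 ± 0.18 on HFD (mean 0.66 ± 0.12, unadjusted p 1.22e-04, adjusted p 0.645).

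A pair of low genes overlap neighbours on the same strand. Gm49388 (ENSMUSG00000108815, chr7:127785608-127803802), a predicted protein-coding gene, gave 1.10, 0 and 0.604 in the Ctrl chow libraries, 2.82, 3.36, 5.27 and 4.69 in NkxCre chow, 0.355 and 1.34e-06 in Ctrl HFD and 2.66, 1.25 and 6.22 in NkxCre HFD, all NkxCre above all Ctrl (mean effect 1.73 ± 0.33). It overlaps Setd1a and Hsd3b7 on the same strand, whose mean effects were -0.29 ± 0.30 and 0.067 ± 0.28. Zfp125 (ENSMUSG00000069755, chr12:20877084-20921262), annotated as a transcribed pseudogene, measured 1.99, 0.889 and 2.33 in the Ctrl chow libraries, 3.64, 10.3, 3.64 and 9.37 in NkxCre chow, 0.0588 and 0 in Ctrl HFD and 6.48, 6.13 and 0.996 in NkxCre HFD. It was close to 0 in both Ctrl HFD libraries, and NkxCre HFD replicate 3 was lower than 2 Ctrl chow libraries (mean effect 1.81 ± 0.40). Zfp125 overlaps 3110053B16Rik (-0.42 ± 0.34) and Gm10478 (0.15 ± 0.65) on the same strand.

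Of the other higher genes, Cd14 (ENSMUSG00000051439, chr18:36725067-36726798), the lipopolysaccharide co-receptor of myeloid cells, was low at 1.83, 1.21 and 3.48 in the Ctrl chow libraries, 6.29, 5.55, 3.71 and 3.52 in NkxCre chow, 1.14 and 0.787 in Ctrl HFD and 3.59, 3.49 and 3.53 in NkxCre HFD, with a mean effect of 1.05 ± 0.25. Its 3 NkxCre HFD libraries were nearly equal, and just above the highest Ctrl library on chow. Cd36 (ENSMUSG00000002944, chr5:17781690-17888801), a scavenger receptor that takes up fatty acids, gave 1.82, 1.08 and 3.45 in the Ctrl chow libraries, 6.17, 4.14, 14.6 and 8.01 in NkxCre chow, 1.82 and 1.17 in Ctrl HFD and 4.11, 2.28 and 3.37 in NkxCre HFD. The genotypes were separate within each diet, with 1.52 ± 0.41 on chow and 0.76 ± 0.49 on HFD (mean 1.14 ± 0.32). Irf8, a transcription factor of the myeloid lineage and also among the 54, had a mean effect of 0.96 ± 0.31 (unadjusted p 0.0086), and was named after its values were seen. Timp4 (ENSMUSG00000030317, chr6:115241892-115252205), an inhibitor of metalloproteinases, measured 11.8, 12.5 and 15.9 in the Ctrl chow libraries, 20.6, 18.5, 23.3 and 20.2 in NkxCre chow, 15.5 and 19.2 in Ctrl HFD and 24.6, 24.5 and 34.1 in NkxCre HFD, a mean effect of 0.62 ± 0.16. NkxCre was above Ctrl within each diet, and Timp4 lies within Syn2 on the opposite strand (0.30 ± 0.19).

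The microglia markers stood beside these as follows. Of 12 markers tested, 11 had mean effects above 0 with a median of 0.19, but the median was 0.46 on chow and 0.0038 on HFD, and their summed signal was 478 to 692 in Ctrl chow, 908 to 922 in NkxCre chow, 502 to 647 in Ctrl HFD and 515 to 649 in NkxCre HFD. Ctss, a lysosomal protease of microglia, was the single marker at an unadjusted p below 0.05 (0.78 on chow and 0.019 on HFD). Their part in the Cd14 and Cd36 differences was not tested. The 21 antigen presentation and interferon genes had 0 members past an adjusted or an unadjusted p of 0.05 by limma, 17 above 0, and medians of 0.44 on chow and -0.097 on HFD.

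Of the remaining higher genes with the smallest p, Pbx4 (ENSMUSG00000031860, chr8:69832491-69872292), a homeobox partner of Hox proteins, gave 24.7, 22.5 and 25.6 in the Ctrl chow libraries, 38.0, 35.9, 55.1 and 41.8 in NkxCre chow, 26.8 and 16.0 in Ctrl HFD and 32.9, 27.7 and 26.8 in NkxCre HFD. Its NkxCre libraries were all above the Ctrl libraries, although 2 of the NkxCre HFD libraries were level with Ctrl HFD replicate 1 to within 1 unit (mean effect 0.62 ± 0.17). Gbgt1 (ENSMUSG00000026829, chr2:28496891-28505415), a glycosyltransferase of glycolipids, gave 5.67, 2.35 and 4.41 in the Ctrl chow libraries, 7.30, 6.81, 9.98 and 6.33 in NkxCre chow, 4.43 and 3.26 in Ctrl HFD and 6.37, 9.17 and 7.07 in NkxCre HFD. All 7 NkxCre libraries exceeded all 5 Ctrl libraries, with effects of 0.78 on chow and 0.81 on HFD.

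Among the lower genes, Adi1 (ENSMUSG00000020629, chr12:28675231-28682175), an enzyme of the methionine salvage pathway, had narrow ranges, at 70.6, 82.8 and 79.1 in the Ctrl chow libraries, 46.9, 52.4, 51.3 and 60.2 in NkxCre chow, 74.2 and 85.0 in Ctrl HFD and 59.8, 56.2 and 56.4 in NkxCre HFD. The Ctrl libraries lay between 70.6 and 85.0 and the NkxCre libraries between 46.9 and 60.2, a mean effect of -0.51 ± 0.11 (limma, unadjusted p 5.85e-04, adjusted p 0.763). Creg1 (ENSMUSG00000040713, chr1:165763746-165775308), a lysosomal and secreted glycoprotein, measured 52.2, 42.6 and 51.7 in the Ctrl chow libraries, 29.2, 31.0, 33.9 and 42.1 in NkxCre chow, 59.3 and 49.3 in Ctrl HFD and 36.3, 28.8 and 18.5 in NkxCre HFD. All NkxCre libraries were below all Ctrl libraries, NkxCre chow replicate 4 by the least, with a mean effect of -0.75 ± 0.18. Rab8a (ENSMUSG00000003037, chr8:72161200-72183904), a small GTPase of vesicle transport and of the primary cilium, was at 49.3, 56.6 and 65.2 in the Ctrl chow libraries, 36.4, 24.6, 21.4 and 46.9 in NkxCre chow, 49.2 and 65.7 in Ctrl HFD and 41.8, 31.5 and 30.9 in NkxCre HFD. Its effects were -0.86 on chow and -0.71 on HFD, again with no overlap between the 7 and the 5 libraries. Lca5 (ENSMUSG00000032258, chr9:83390293-83441127), the gene of the ciliary protein lebercilin, gave 12.3, 19.9 and 32.0 in the Ctrl chow libraries, 6.14, 4.83, 3.61 and 5.88 in NkxCre chow, 10.1 and 7.13 in Ctrl HFD and 6.75, 3.32 and 5.78 in NkxCre HFD. Its effect was -1.79 ± 0.35 on chow and -0.64 ± 0.42 on HFD, where NkxCre HFD replicate 1 was just below Ctrl HFD replicate 2.

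Gtdc1 (ENSMUSG00000036890, chr2:44564412-44927657), a glycosyltransferase-like gene, was at 24.0, 24.3 and 25.0 in the Ctrl chow libraries, 13.8, 12.7, 17.8 and 17.0 in NkxCre chow, 41.9 and 44.2 in Ctrl HFD and 19.4, 25.2 and 27.2 in NkxCre HFD. Its effects were -0.65 ± 0.19 on chow and -0.84 ± 0.23 on HFD (unadjusted p 2.92e-04 for the mean), and its NkxCre HFD libraries overlapped the Ctrl chow libraries, the signal being higher on HFD in both genotypes. Fntb (ENSMUSG00000033373, chr12:76765589-76921412), the beta subunit of protein farnesyltransferase, had means of 30.3 ± 6.05, 18.0 ± 5.44, 37.8 ± 4.16 and 22.3 ± 1.45 in the same order of groups. The effect was -0.75 on chow and -0.73 on HFD, with a mean of -0.74. Fntb shares bases with Churc1 on the same strand, whose mean effect was of the opposite sign, at 0.75 (unadjusted limma p 0.057). Whether reads of one were assigned to the other was not tested. Usp3 (ENSMUSG00000032376, chr9:66514637-66593142), a histone deubiquitinase, had means of 19.6 ± 7.72, 8.26 ± 2.12, 11.5 ± 2.14 and 7.03 ± 1.69 and a mean effect of -0.88 ± 0.24. Usp3 libraries from Ctrl HFD overlapped those from NkxCre chow, but within each diet the genotypes were separate.

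Another 4 of the lower genes had small signals. Mroh2a (ENSMUSG00000079429, chr1:88226986-88262289), a HEAT-repeat protein gene, gave 5.80, 4.88 and 7.88 in the Ctrl chow libraries, 2.09, 0.269, 0 and 0.305 in NkxCre chow, 8.32 and 1.70 in Ctrl HFD and 1.07, 0.676 and 0 in NkxCre HFD. The genotypes were separate within each diet, although NkxCre chow replicate 1 was above Ctrl HFD replicate 2, and the mean effect was -1.98 ± 0.39 (unadjusted p 2.50e-04). Fam217a (ENSMUSG00000021414, chr13:34909960-34924310) was at or near 0 in NkxCre chow (0, 0.105, 0 and 0.460) but at 1.19, 1.24 and 1.55 in NkxCre HFD, against 1.56, 3.79 and 1.47 and 2.23 and 1.98 in Ctrl on chow and HFD. Ajuba (ENSMUSG00000022178, chr14:54567472-54577558), a LIM-domain adaptor of the Hippo pathway, was separate over all 12 libraries, with a mean effect of -0.88 ± 0.25. Mob3b (ENSMUSG00000073910, chr4:34949074-35157484), of the MOB kinase activator family, had effects of -0.84 on chow and -0.71 on HFD.

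Cldn2, a tight junction gene of the choroid plexus, was also among the lower genes and was named after its values were seen, with 1.26, 20.1 and 0.728 in the Ctrl chow libraries, 0.298, 0.117, 0 and 0.324 in NkxCre chow, 4.16 and 0.498 in Ctrl HFD and 0.299, 0.0570 and 0 in NkxCre HFD and a mean effect of -1.60 ± 0.57. Its highest values were in Ctrl chow replicate 2 and Ctrl HFD replicate 1. Of 6 choroid plexus markers tested, Ttr (-3.74 ± 1.16) and Sostdc1 (-1.01 ± 0.46) were lower at an unadjusted p below 0.05, 0 passed an adjusted p by limma, 5 were below 0 and the median was -0.38. The summed signal overlapped between genotypes on both diets, at 32.5 to 80.6 in Ctrl chow, 35.7 to 49.1 in NkxCre chow, 38.2 and 2194 in Ctrl HFD and 37.0 to 44.4 in NkxCre HFD. The value of 2194 was in Ctrl HFD replicate 1, without which the effect of Ttr was -1.64 and the median of the markers -0.11. Their part in the Cldn2 difference was not tested.

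Rps7 lies on chromosome 12 (ENSMUSG00000061477, chr12:28630854-28635953), and Hpcal1, Zfp125 and Adi1 lie within 15 megabases (Mb) of its start. That window, set after the values were seen, held 106 tested genes, of which 13 (12.3%) had an unadjusted p below 0.05 and 3 (2.83%) differed the same way on both diets. The rest of the chromosome held 465 genes, with 14 (3.01%) and 3 (0.645%), and all other chromosomes 15229 genes, with 423 (2.78%) and 48 (0.315%). Within the window 8 of the 13 were higher and 5 lower in the mean effect. Adi1, 0.044 Mb from Rps7, was lower, as were Pqlc3 (-0.99), Lamb1 (-0.52) and Sostdc1. Gm49329 was lower in the mean (-0.92) but went opposite ways by diet, with 0.45 on chow and -2.29 on HFD. Rrm2 (1.09), Grhl1 (0.54), Agmo (0.82), Scin (0.61) and Gm4804 (1.40) were higher in the mean. Gm19196 was separate on HFD but not on chow (4.59 against 0.14).

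**Figure D4:**
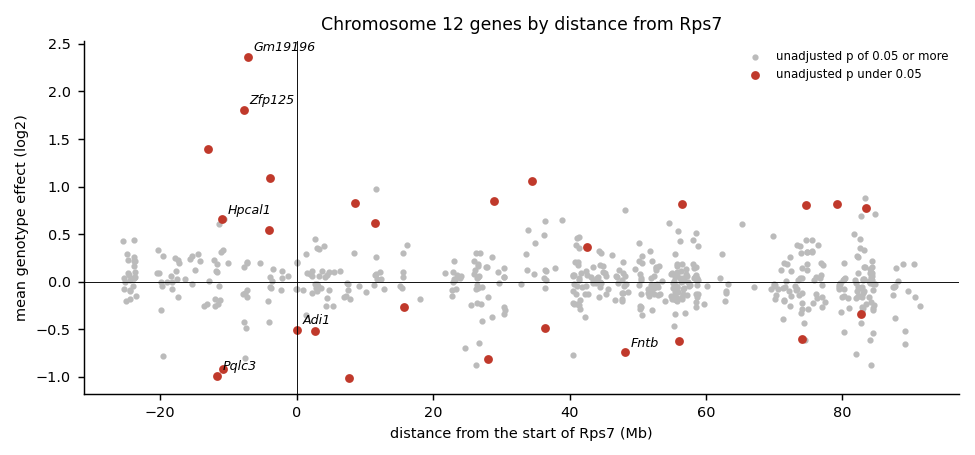
Mean genotype effect (vertical axis, log2) of the 571 chromosome 12 genes tested other than Rps7, by distance of their start from that of Rps7 (horizontal axis, Mb). Genes with an unadjusted p below 0.05 (red) number 13 within 15 Mb of Rps7 and 14 over the rest of the chromosome, and they lie on both sides of 0.

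Nkx2-1 (ENSMUSG00000001496, chr12:56531958-56536908), whose promoter drives the Cre, is on the same chromosome and had group means of 62.5 ± 17.5, 65.1 ± 9.29, 52.9 ± 10.3 and 61.2 ± 3.60 in Ctrl chow, NkxCre chow, Ctrl HFD and NkxCre HFD. The genotypes overlapped on both diets, with a mean effect of 0.15 ± 0.15 (unadjusted p 0.35). Of 11 tested genes of the list around Nkx2-1, Foxa1 (0.85 ± 0.38) was higher and Slc25a21 (-0.81 ± 0.34) lower at an unadjusted p below 0.05, both with signals near or below 1 in most libraries.

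Of 17 oestrogen-responsive genes, Pdyn, Oxtr and Tac2 were higher and none was lower at an unadjusted p below 0.05, none passed the adjusted threshold, and the median effect was 0.033 (over all genes tested, 2.85% were at an unadjusted p below 0.05). Pgr, the progesterone receptor gene, had a mean effect of 0.069 ± 0.29 (-0.23 on chow, 0.37 on HFD), and Greb1, an ERα co-activator, -0.26 ± 0.52, with genotypes overlapping on both diets. Of the 12 receptor and co-regulator genes tested, Esr1 was the single one past an unadjusted p of 0.05, and the co-activator Ncoa1 (-0.09 ± 0.21) and the co-repressor Ncor1 (-0.0014) lay near 0.

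The 4 secreted factors singled out by the study on these samples, Ccn3, Fst, Penk and Grp, had an unadjusted p below 0.05 in the mean effect (median 1.36), which is not independent evidence of direction. None was among the 55 genes, and the HFD effects were -0.53 ± 0.43 for Ccn3, 0.037 ± 0.49 for Fst, 0.34 ± 0.28 for Penk and 0.11 ± 0.65 for Grp, with overlapping genotypes, against 3.03, 3.13, 1.33 and 2.82 on chow. The interaction with diet had unadjusted p of 3.52e-05, 3.59e-04, 0.02 and 0.0074 by limma, and adjusted p above 0.05.

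**Figure D5:**
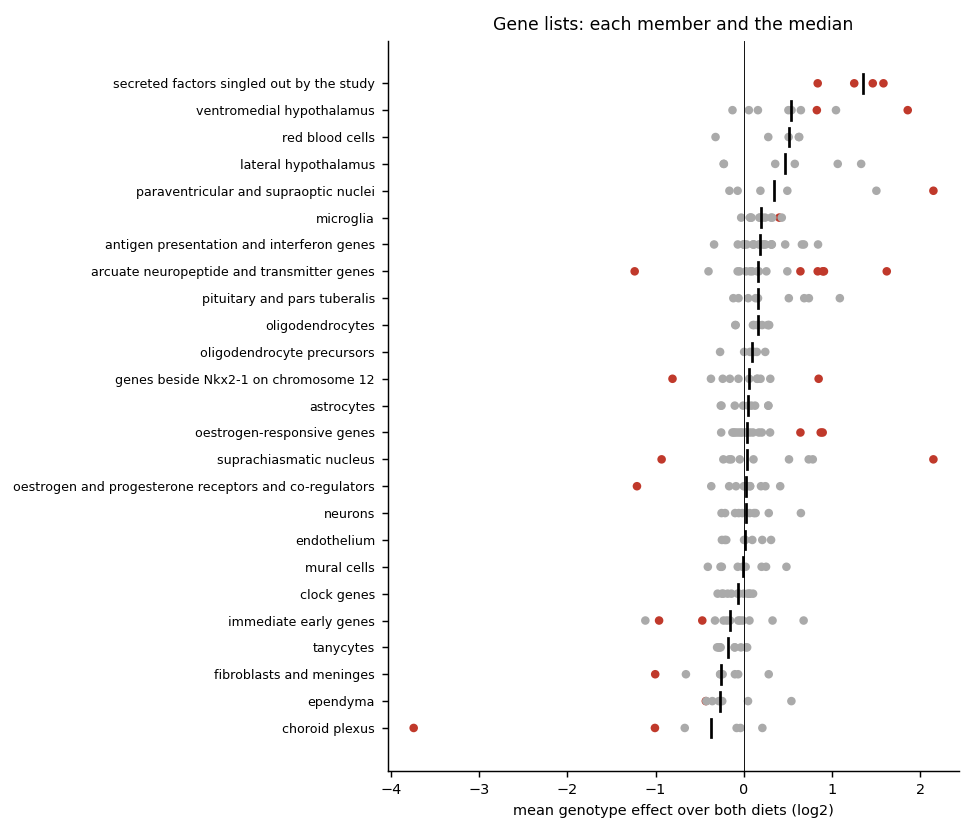
Mean genotype effect (horizontal axis, log2) of every tested member of the 25 gene lists (points; red for an unadjusted p below 0.05) and the median of each list (black bars). Medians run from -0.38 for the choroid plexus to 0.54 for the ventromedial hypothalamus, apart from 1.36 for the 4 factors chosen on these samples, and no list holds a gene past the adjusted threshold.

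The other lists gave few members. Of 13 immediate early genes, which follow neuronal activity, Arc (-0.96 ± 0.37) and Jun (-0.47 ± 0.19) were lower at an unadjusted limma p below 0.05. Over all genes tested 1.34% were lower at that threshold. In this list 0 genes passed the adjusted threshold, 10 of 13 were below 0, and the median was -0.16. The 12 clock genes had 0 members past an unadjusted p of 0.05 and a median of -0.062 by limma, Tef (-0.18) and Dbp (-0.054) being the most abundant. Avp, the vasopressin gene of the paraventricular, supraoptic and suprachiasmatic nuclei, was at 91.1, 340.2 and 171 in the Ctrl chow libraries, 77.3, 3051, 377 and 678 in NkxCre chow, 195 and 236 in Ctrl HFD and 677, 2553 and 1926 in NkxCre HFD, with a mean effect of 2.15 ± 0.73. It overlapped between genotypes on chow, and NkxCre chow replicate 1 was the lowest of all libraries. Prok2, a peptide of the suprachiasmatic nucleus, had effects of -1.62 on chow and -0.24 on HFD. Col3a1 of fibroblasts (-1.01 ± 0.32) and Pltp of the ependyma list (-0.43 ± 0.19) were lower at an unadjusted p below 0.05.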

How the data were processed

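The deposited table gives one abundance signal per gene in 12 ARC libraries, grouped by the labels. The authors microdissected the ARC, made libraries with NEBNext Ultra II, sequenced them on a NovaSeq and quantified genes with kallisto and sleuth on mm10. The scaling of this deposited signal is not given in the sources used here, it is not whole reads, and depth is unknown. The labels do not state that libraries of a group came from separate animals, so p-values measure the spread between these libraries, which may be technical. No pair among 66 was identical.

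Of 16640 genes, 16635 matched GENCODE M21 (GRCm38, the same assembly as mm10), and 15801 with a signal of at least 1 in at least 2 libraries were tested. limma 3.58.1 (R 4.3.3, trend) was fitted to log2(signal + 1) with 4 group means, and the mean, within-diet and interaction contrasts were adjusted by Benjamini-Hochberg over all genes. The fit was tested on simulated data. Esr1 was also tested by exact permutation of genotype within diets. Alternatives covered scaling, filter, pseudocount, model, covariates and leaving out libraries. Count-based tests were not run because the values are not counts. Named genes were 10 chosen genes, up to 12 each way past the adjusted threshold or without overlap on both diets (mean signal of at least 1, smallest p), up to 4 members per list at an unadjusted p below 0.05, and for a list with none the 2 of highest mean. Other genes of a list or window were named after their values were seen. The members and lists were chosen with earlier results of these data known. Kiss1 was not analysed here, and a few list members are not reported here. Replicate numbers follow accession order and pair nothing. Promoters are RefSeq windows of 300 bases. Strand use in counting is not given in the sources used here.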

Additional observations from a re-analysis of the deposited data

Results flagged for a closer look

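In NkxCre chow, the one group of 4 libraries, 34 entries were checked, with Pdyn entered more than once. Of the genes checked, 3 had a library set far from the other 3. Grp, the gastrin-releasing peptide gene, was 121 in replicate 3, which left 0.902 of the whole range between it and its neighbour. Tac2 was 1026 in replicate 1 (0.831 of the range), and Mroh2a was 2.09 in replicate 1 (0.854 of the range). Chance marks about 1 in 20 groups in this way, a rate that need not hold for genes picked on these same libraries.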

How the results depend on the processing

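The mean effect passed the adjusted threshold for 1 gene, Rps7, under each alternative except the first residual component as a covariate, which gave 2 (Rps7 and Gm19196), and leaving out one library, with 1 to 2 (Gm19196 without NkxCre chow replicate 3, Ttr without Ctrl HFD replicate 2). On chow, Fst was lost, leaving 2 genes, with a pseudocount of 0.1, a mean of at least 5, either marker score, or without NkxCre HFD replicate 1, 2 or 3 or Ctrl HFD replicate 2. Without NkxCre chow replicate 1 the 3 genes were Rps7, Ccn3 and Gm14601. A pseudocount of 0.1 gave 2 genes on HFD and 1 in the interaction (Gm10563), and the residual component 2 on HFD and 1 in the interaction (Gm19196), where the cause was not tested. Leaving out one library gave 1 to 4 genes on chow, 1 to 2 on HFD and 0 to 1 in the interaction, and chow kept Rps7 alone without Ctrl chow replicate 1 or 2 or NkxCre chow replicate 4, and Rps7 and Gm45380 without Ctrl chow replicate 3. Genes separate on both diets numbered 80 to 192 the same way and 114 to 226 opposite ways when one library was left out, most without Ctrl HFD replicate 1 and Ctrl HFD replicate 2, since fewer libraries overlap less, and the same way outnumbered the opposite without Ctrl chow replicate 2 or Ctrl HFD replicate 1. Without Ctrl chow replicate 2 and Ctrl HFD replicate 1 the counts were 427 and 603 of 15727 genes tested. Quantile normalisation, rescaling, no filter and a mean of at least 5 gave 72, 45, 58 and 40 the same way, and 81, 97, 89 and 66 opposite ways.

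Of 1787 values of 72 named genes under 25 alternatives, 4 changed sign, all of Pgr: -0.065 with array weights, -0.015 with the ventromedial score, and -0.16 to 0.26 leaving out one library. Ttr reached an adjusted p of 0.031 without Ctrl HFD replicate 2, and Rps7 passed throughout. Rec8 ranged from 1.62 to 2.63, Hpcal1 from 0.60 to 0.72, Nts from 0.78 to 1.01, Oxtr from 0.74 to 0.99 and Mroh2a from -3.49 to -1.52. No paired analysis was possible because replicate numbers follow accession order and mark no shared animal, litter or day. With 2 Ctrl libraries on HFD and no read counts, small differences there were not detectable.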

Other observations

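Lists of neuron, glia and vessel markers had 0 members past an adjusted p of 0.05 in limma's test, and the members past an unadjusted p of 0.05 are those named in the report. The 2 most abundant members of each list were, with their mean effects, Snap25 (0.11) and Tubb3 (-0.017) for neurons (median 0.024), Gfap (0.28) and Slc1a3 (0.051) for astrocytes (0.051), Olig1 (0.0028) and Olig2 (0.12) for oligodendrocyte precursors (0.093), Ly6c1 (0.31) and Cldn5 (0.0021) for endothelium (0.0092), Vtn (0.20) and Rgs5 (-0.25) for mural cells (-0.014) and Vim (-0.30) and Gpr50 (-0.28) for tanycytes (-0.18). Fibroblast and ependyma markers had medians of -0.25 and -0.27.

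For other lists the medians are given by diet, and the difference between diets was not tested. Oligodendrocyte markers, with Mbp at 0.28, had medians of 0.65 on chow and -0.36 on HFD. Red blood cell genes, led by Hba-a2 (0.28) and Hbb-bs (0.51), had medians of 0.89 and -0.17. Pituitary genes, with Cga at 4802 in Ctrl chow replicate 2 and 82.0 in Ctrl HFD replicate 1 (mean effect 0.74), with Cck at -0.061, had medians of -0.42 and 0.74. Lateral hypothalamus genes, led by Nptx2 (0.58) and Pmch (1.33), had a median of 0.47, paraventricular and supraoptic genes 0.34 and suprachiasmatic genes 0.031. Among antigen presentation genes the most abundant were B2m (0.22) and Ifi27 (0.31). None of these lists held a gene past the adjusted threshold in limma's test.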
